A study of Rattus norvegicus with 6 samples.

Results

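The mitochondrial ribosome translates the few proteins that mitochondrial DNA encodes, all of them core subunits of the respiratory chain and of ATP synthase. Its RNA is made inside the organelle, whereas every one of its proteins is encoded in the nucleus, translated in the cytosol and imported. The large subunit forms the peptide bond and the small subunit reads the mRNA; proteins of the large subunit carry symbols beginning with Mrpl and those of the small subunit symbols beginning with Mrps. Pancreatic beta cells, the insulin-secreting cells of the islets, depend on mitochondrial ATP to couple glucose metabolism to insulin release.

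The transcripts of these proteins were followed in islets that collagenase digestion had freed from the pancreas of untreated male Wistar rats. The rats were 3 or 12 months old, and each age had 3 one-colour arrays. The comparison asks which transcripts differ between the ages. Genes with a symbol of Mrpl or Mrps plus a digit were found through the RefSeq mRNA accessions of the array probes. Of 13903 genes with a probe, 63 fit this rule, each with 1 probe, and 42 of them belonged to the large and 21 to the small subunit. Mrps30 and Mrps18a were placed in the large subunit, where their proteins sit. Of the 63, 58 were tested because their probe passed the scanner software's mark for signal well above background in 3 or more of the 6 arrays, and 51 were above background on all 6. Mrpl3, Mrpl30, Mrpl45 and Mrps17 were above background on no array and Mrpl15 on 1 array; these were not tested. By the RefSeq gene list, 21 of the 63 share their name with at least 1 pseudogene, among them Mrpl17, Mrps16, Mrpl42, Mrpl2 and Mrps18c, and signal from such copies cannot be told apart here. All values below are quantile-normalized log2 signals. In RNA of whole islets, fewer cells of a type and less RNA per cell cannot be told apart.

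Each age had its own scan, and what the scan contributes cannot be told apart from age. The median signal of the negative control spots was 30.2 ± 0.764 at 3 months and 90.5 ± 0.866 at 12 months (SD, n = 3 each). The lowest log2 signal marked well above background was 2.89 to 3.17 at 3 months and 4.26 to 5.13 at 12 months. This bears on the dim transcripts Mrps35, Mrps23, Mrpl55, Mrps5, Mrpl48 and Mrpl12. Probes well above background made up 75.7% ± 2.32 of all probes on 3-month arrays and 61.2% ± 2.61 on 12-month arrays (SD, n = 3 each), and the number of the 63 genes above background was 57.3 ± 0.577 and 53.7 ± 1.15 respectively. Markers of several islet and pancreas cell types differed between the ages. All 9 tested nerve and Schwann cell markers were lower at 12 months, 2 of them at an adjusted p under 0.05, with a summed linear signal of 8066 to 12587 at 3 months and 3532 to 4953 at 12 months. Endothelial markers were lower for 5 of 6, none at that threshold, with summed signals of 56562 to 73892 and 31498 to 53085. Stellate and mesenchymal markers were higher for 5 of 6, 1 at that threshold, with summed signals of 26220 to 35329 and 38203 to 97639. The 7 beta cell markers matched on the array, Ins1 and Ins2 included, were above background on all 6 arrays; 5 of them were higher at 12 months, 2 at that threshold, and their summed signal was 828988 to 970440 at 3 months and 1052560 to 1197310 at 12 months. Of other endocrine markers 8 of 9 were higher, 1 at that threshold, with summed signals of 850059 to 952054 and 1040020 to 1166860. Duct markers were higher for 3 of 5, with summed signals of 30511 to 37071 and 39292 to 60485. Immune markers were lower for 6 of 7 and red blood cell markers for 3 of 5, none at that threshold, with summed signals that overlapped between the ages. The part of these shifts in the results below was not tested.

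Promoter sequence is shown first, because it carries features that the rule did not use. In the RefSeq promoter table (assembly GRCr8, windows from 250 bases before to 50 bases after the start of transcription), 52 of the 63 genes had a window. Short motifs of 3 factors known for nuclear genes of mitochondrial function were searched on both strands, namely GCATGCGC for NRF1, CCGGAAGT for the ETS factor GABP, and AAGATGGC for YY1. At least 1 of the 3 was found in 21 of the 52 windows, or 40.4%, against 8.84% of all 33469 promoters and 10.8% of 21851 promoters of protein-coding genes. The YY1 letters were present in 12 windows (23.1%, against 3.17% of all promoters), the ETS letters in 8 (15.4% against 3.81%), and the NRF1 letters in 5 (9.62% against 2.47%). A match is a description of the letters and not a binding site.

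**Figure D1:**
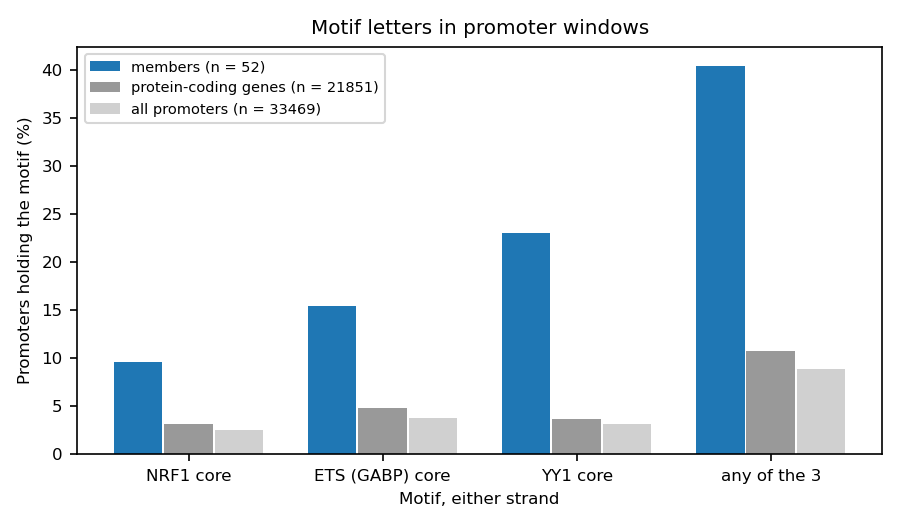
Share of promoter windows of 300 bases (y axis, percent) that hold each motif on either strand (x axis), for the mitochondrial ribosomal protein genes, all protein-coding genes and all promoters of the RefSeq table. The bar of the mitochondrial ribosomal protein genes is the tallest for each motif, from 9.62% for NRF1 to 23.1% for YY1 and 40.4% for any of the 3.

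In the windows with NRF1 letters, 4 genes carried the palindrome in which the motif overlaps itself on both strands. These stretches are shown 5′ to 3′ on the strand of the gene, with the motif in capitals, because they include Mrpl44 and Mrpl17, which stood on opposite sides of the comparison by age. The stretch of Mrpl44 is on the plus strand at chr9:88554908-88554937, that of Mrpl17 on the minus strand at chr1:169575735-169575764, that of Mrps18b on the plus strand at chr20:2842976-2843005, and that of Mrpl32 on the plus strand at chr17:55260579-55260608.
Mrpl44: agaagcacttGCGCATGCGCactatgctag
Mrpl17: aggctctgatGCGCATGCGCaagcacccct
Mrps18b: tccttgtccgGCGCATGCGCagtcgttctt
Mrpl32: tttgacctgtGCGCATGCGCagggaacctg
The flanking bases differ among the 4 genes. The first base of the palindrome lies at -132 in Mrpl44, -55 in Mrpl17, -20 in Mrps18b and -62 in Mrpl32, counted from the start of transcription.

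The YY1 letters showed a preferred place and strand. Of 12 sites, 9 lay after the start of transcription on the strand of the gene, with their first base between positions 1 and 30. Among the 1102 sites of all promoters, 368 did so, or 33.4%. Stretches of 30 bases around 6 of these sites are given, chosen because they belong to genes named below: Mrps27 (plus strand, chr2:32474222-32474251), Mrps18b (plus strand, chr20:2843023-2843052), Mrpl42 (minus strand, chr7:32028485-32028514), Mrps30 (minus strand, chr2:52195868-52195897), Mrps18a (minus strand, chr9:22367362-22367391) and Mrpl46 (minus strand, chr1:142116988-142117017).
Mrps27: tggtacgctccAAGATGGCggcccccatgg
Mrps18b: ggatgtgcgacAAGATGGCtgcctccttgc
Mrpl42: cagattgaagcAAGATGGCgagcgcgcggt
Mrps30: cgcggaggacaAAGATGGCggctgccaggt
Mrps18a: ggtgtgttcccAAGATGGCggccctcaggg
Mrpl46: gggaagacggaAAGATGGCggcgcccatag
The motif contains the letters of a start codon, and whether translation begins there was not determined. Mrps27 also held the ETS letters, on the opposite strand and therefore reading ACTTCCGG, with their first base at -47 (plus strand, chr2:32474146-32474175).
Mrps27: gtggtccgtccACTTCCGGcggaggcgggc

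Between the ages, most transcripts of the mitochondrial ribosome differed little. Of the 58 tested, 37 had a negative and 21 a positive difference (12 minus 3 months), and the median difference was -0.16, beside -0.17 over all tested probes and -0.13 over all 11202 tested genes. After Benjamini-Hochberg adjustment of the limma p-values over 17941 probes, 2 of the 58 passed 0.05, Mrps35 and Mrpl44, both lower, which is 3.45% of them. Over all tested probes 8.37% were called at that threshold, 5.32% higher and 3.05% lower. At an unadjusted p under 0.05, 5 were higher and 7 lower, or 8.62% and 12.1% of the 58, where 13.7% and 18.8% of all tested probes were.

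The share of large differences was close to that of related families, while small differences were more frequent among cytosolic ribosomal proteins. An absolute log2 difference under 0.5 was found for 56.9% of the 58 and for 45.3% of all tested genes, and one over 1 for 10.3% and 24.6%. Differences under 0.5 made up 79.7% of those of cytosolic ribosomal proteins and 53.5% of those of nuclear subunits of oxidative phosphorylation. Of cytosolic ribosomal proteins 10.1%, and of nuclear subunits of oxidative phosphorylation 7.04%, also exceeded 1, so this share was not particular to the mitochondrial ribosome. With limma p-values at the thresholds of the study, an unadjusted p under 0.05 and more than a 2-fold difference, Mrpl16, Mrpl17 and Mrps5 were called higher and Mrps35 lower. That is 5.17% and 1.72% of the 58, against 10.1% of all tested probes called higher and 11.9% called lower. The paired test that the supplement of the study names, with unnumbered arrays paired by elimination, called Mrps35 and none higher at these thresholds. Its unpaired form called Mrpl16, Mrpl17 and Mrps35. Of all tested probes the paired test called 5.34% higher and 3.31% lower, and the unpaired form 8.20% and 7.05%. When arrays were aligned at their 75th percentiles instead, 6 such limma calls were made and 0 of them were higher. With that alignment 7.74% of all tested probes were called higher and 19.7% lower. The values of the 2 ages did not overlap for 7 higher and 15 lower transcripts, or 12.1% and 25.9%, where 16.5% and 22.6% of all tested probes did not overlap. With the 75th percentile alignment these counts were 6 higher and 23 lower, beside 12.5% and 32.0% of all probes; that alignment moved the median of all probes from -0.17 to -0.40 and that of the 58 to -0.32.

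**Figure D2:**
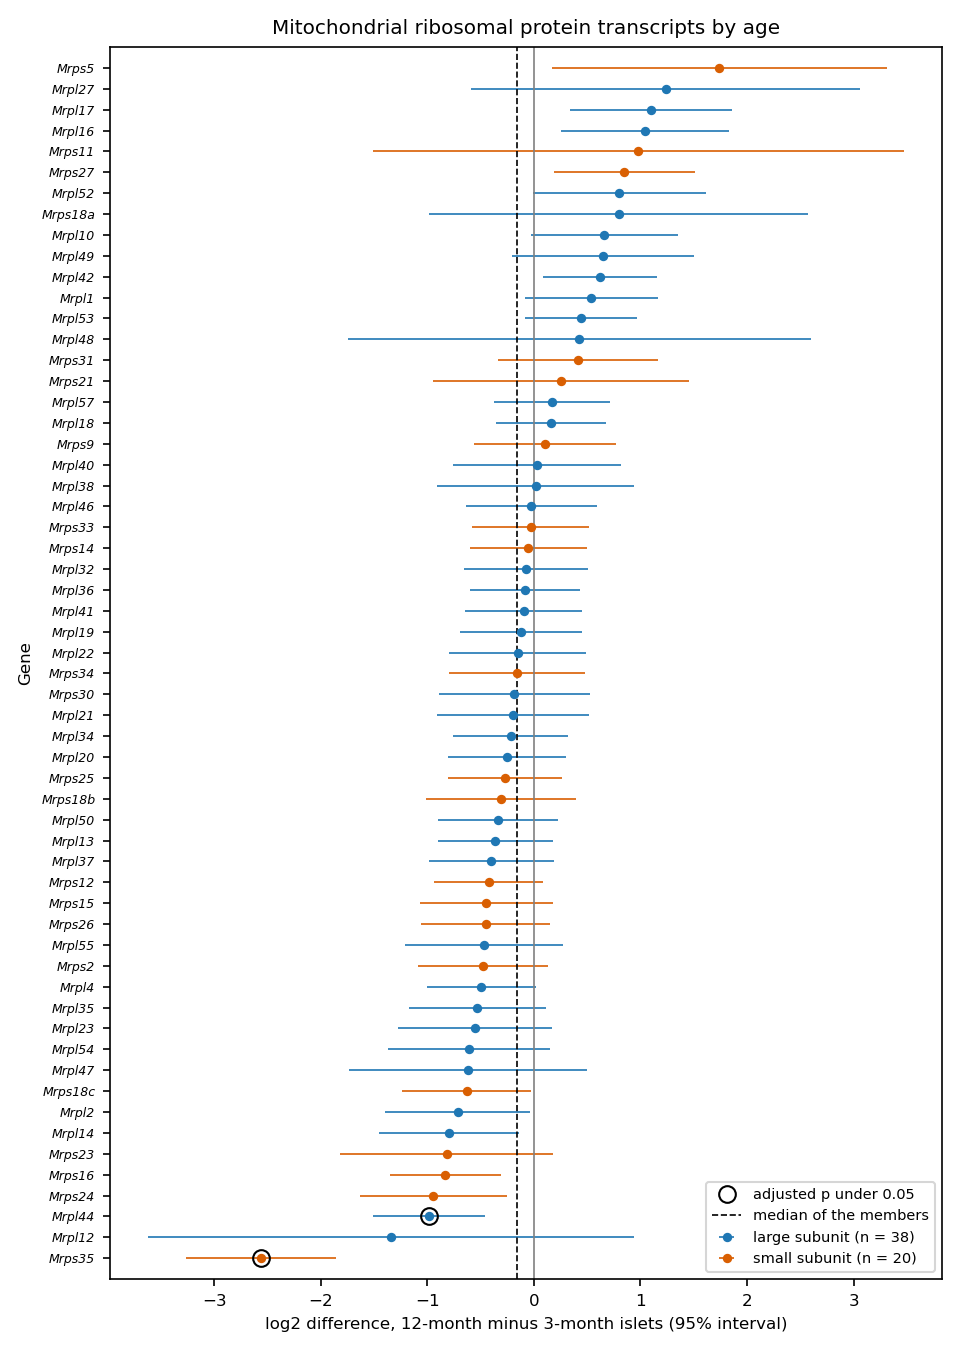
Log2 difference between 12-month and 3-month islets (x axis) for each of the 58 tested mitochondrial ribosomal protein genes (y axis), with 95% intervals from limma; blue points are large subunit genes, orange points small subunit genes, open circles mark an adjusted p under 0.05, and the dashed line is the median of the 58, -0.16. The points run from -2.56 for Mrps35 to 1.74 for Mrps5, and most intervals cross 0.

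Mrps35, a mitochondria-specific protein of the small subunit with no counterpart in the bacterial ribosome, fell most. Its log2 signal was 8.09, 7.62 and 7.55 on the 3-month arrays and 5.25, 5.54 and 4.79 on the 12-month arrays. Every 12-month value lay more than 2 log2 units below every 3-month value. The difference was -2.56 (limma SE 0.30, adjusted p 0.00882), a 5.90-fold lower level. At 12 months 2 of 3 arrays gave a signal well above background, so the size of the fall rests on signals near background. It was called in 12 of 15 alternative analyses and whenever 1 array was left out.

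Mrpl44, a protein of the large subunit related to ribonuclease III, was lower by a smaller and more even step. The log2 signal was 10.93, 10.86 and 11.11 at 3 months and 9.92, 9.90 and 10.14 at 12 months, above background on all 6 arrays. The groups did not overlap, and the difference was -0.98 (limma SE 0.22, adjusted p 0.0450). This call was lost in all 6 fits that left out 1 array and was made in 7 of 16 alternatives, while the difference stayed between -1.08 and -0.81.

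Of the other transcripts of the small subunit with an unadjusted p under 0.05, Mrps24, Mrps16 and Mrps18c were lower. Mrps24, the homologue of bacterial ribosomal protein S3, read 14.56, 14.68 and 13.85 at 3 months and 13.45, 13.35 and 13.46 at 12 months (difference -0.94, limma adjusted p 0.0839). Mrps16, the homologue of bacterial S16, read 14.55, 14.37 and 14.23 against 13.56, 13.59 and 13.51 (-0.83, limma adjusted p 0.0633). For both, the 12-month arrays lay close together and below all 3-month arrays. Mrps18c, 1 of 3 mitochondrial relatives of bacterial S18, read 9.70, 9.69 and 9.38 against 9.02, 9.20 and 8.65 (-0.63, limma adjusted p 0.142). The other relatives, counted as specific to mitochondria in ribosomal protein nomenclature, differed in sign. Mrps18b had a difference of -0.31 (SE 0.30) and Mrps18a, the relative found in the large subunit, one of 0.80 (SE 0.75). Neither was larger in size than the range of its values over the arrays of either age.

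Mrps5 and Mrps27 had positive differences. Mrps5, the homologue of bacterial S5, read 5.10, 3.34 and 3.14 at 3 months and 5.18, 4.98 and 6.65 at 12 months. The groups overlapped, and the probe was above background on 1 of 3 arrays at 3 months and 2 of 3 at 12 months, so its difference of 1.74 (limma SE 0.66, adjusted p 0.127) rests on signals near background. Mrps27, a pentatricopeptide repeat protein of the small subunit, read 6.89, 7.08 and 6.43 against 7.66, 7.89 and 7.39, with no overlap (0.85, limma adjusted p 0.0946). Mrps12, which lies at the decoding centre, and Mrps34 had differences of -0.43 and -0.16 (limma adjusted p 0.213 and 0.696). Mrps23 was not well above background at 12 months on any array. Its difference was -0.82 (limma interval -1.82 to 0.18, adjusted p 0.219), and the values of the ages overlapped.

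Among large subunit proteins, Mrpl14 and Mrpl2, homologues of the bacterial proteins of the same numbers, were lower at an unadjusted p under 0.05. Mrpl14 read 11.79, 11.67 and 11.13 at 3 months and 10.66, 10.56 and 10.98 at 12 months (-0.80, limma adjusted p 0.107). Mrpl2 read 11.82, 11.54 and 11.35 against 10.58, 10.70 and 11.29 (-0.72, limma adjusted p 0.140). In each, the highest 12-month value lay just below the lowest 3-month value, and neither passed the adjusted threshold.

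Mrpl17, Mrpl16 and Mrpl42 stood on the other side. Mrpl17 read 12.76, 12.45 and 11.89 at 3 months and 13.70, 13.10 and 13.60 at 12 months, a difference of 1.099 (limma SE 0.32, adjusted p 0.0753). Mrpl16 read 6.91, 7.92 and 7.67 against 8.61, 8.26 and 8.76 (1.04, limma adjusted p 0.0896). Mrpl42 read 9.10, 9.33 and 8.99 against 9.70, 9.73 and 9.86 (0.62, limma adjusted p 0.115). All 3 transcripts were higher on every 12-month array than on the 3-month arrays; the exact two-sided permutation p was 0.1 for each, which is the smallest value possible with 3 arrays a group. Mrpl16 and Mrpl17 are homologues of bacterial proteins, whereas Mrpl42 is specific to mitochondria.

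Mrpl12, the counterpart of the bacterial stalk protein L7/L12, could not be placed. Its signal was 4.73, 6.66 and 8.80 on the 3-month arrays and 4.81, 5.96 and 5.39 on the 12-month arrays, above background on 1 of the latter. The 3-month arrays alone spanned more than the difference of -1.34 (limma SE 0.96, adjusted p 0.358), which was -0.30 without 3-month replicate 3 and -2.34 without 3-month replicate 1. Mrps30 had a difference of -0.18 (SE 0.30). Mrpl55 was above background on no 12-month array. Its difference was -0.47 (limma interval -1.21 to 0.27, adjusted p 0.325), and the values of the ages overlapped.

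**Figure D3:**
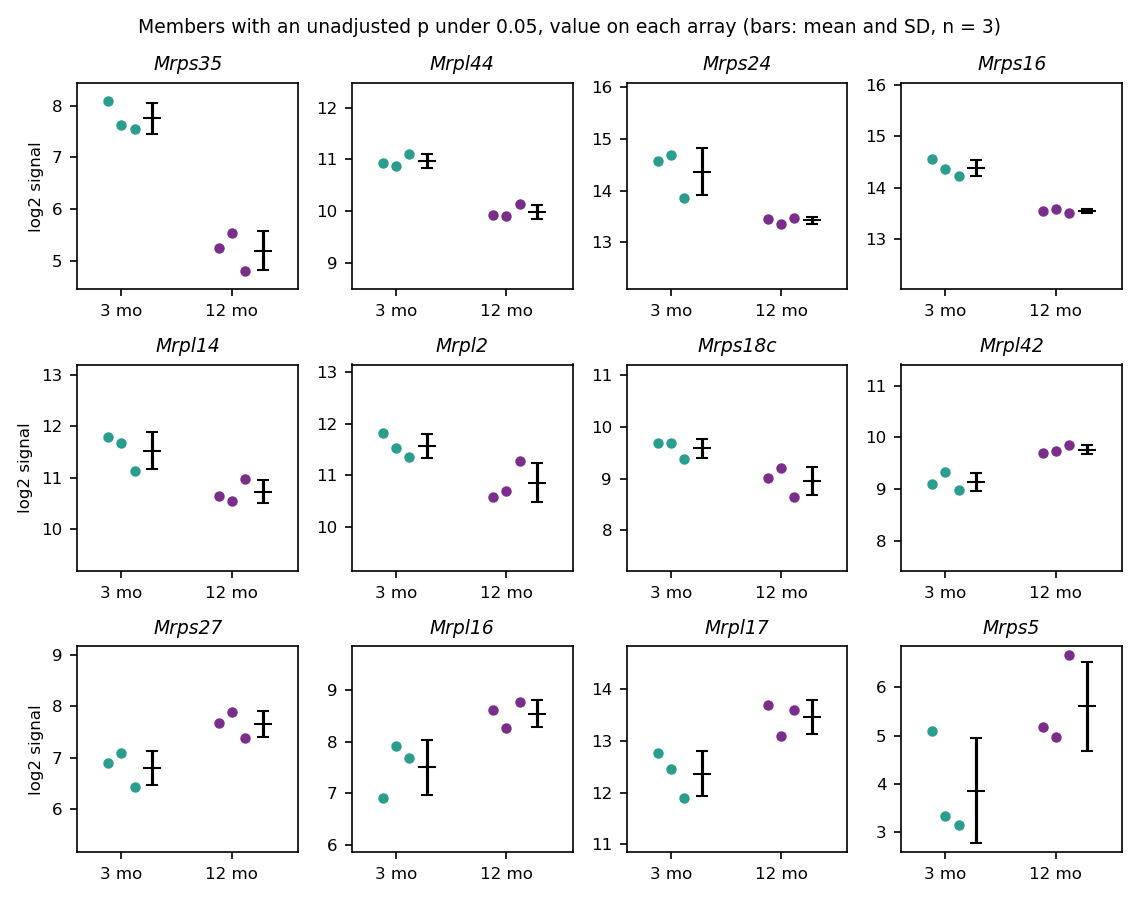
Log2 signal on each array (y axis) at 3 and 12 months (x axis) for the 12 transcripts with an unadjusted p under 0.05; points are arrays and bars give the mean and SD (n = 3). The y axes differ in position. The 2 ages overlap for Mrps5, and the step of Mrps35, -2.56, is larger than those of the other 6 lower transcripts.

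Between the subunits, the 38 tested transcripts of the large subunit had a median difference of -0.11 and the 20 of the small subunit one of -0.29. Negative differences were found for 23 of the 38 and for 14 of the 20. Groups did not overlap for 6 higher (15.8%) and 7 lower (18.4%) transcripts of the large subunit. In the small subunit they did not for 1 higher (5%) and 8 lower (40%). Over all tested probes the shares were 16.5% higher and 22.6% lower. The 33 with a bacterial homologue had a median of -0.22 and the 25 specific to mitochondria one of -0.03; both adjusted calls were in the latter class. These are counts and medians side by side, and the difference between classes was not tested. By array, the median of the 58 transcripts relative to the 3-month mean of each gene was 0.04, 0.10 and -0.11 on the 3-month arrays and -0.22, -0.21 and -0.12 on the 12-month arrays, so that 3-month replicate 3 and 12-month replicate 3 were nearly level.

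Transcripts also varied between arrays of 1 age. The range over the 12-month arrays exceeded 1 log2 unit for 11 of the 58, or 18.97%, against 29.5% of all tested genes. In 9 of these 11 the lowest value was on 12-month replicate 2, as it was in 46.8% of such genes over the whole array. Mrps11, the homologue of bacterial S11, read 7.77, 7.10 and 5.94 at 3 months and 8.34, 5.61 and 9.80 at 12 months. Mrpl27 read 9.10, 8.88 and 7.53 against 9.91, 8.22 and 11.08. Both transcripts were lowest on 3-month replicate 3 and on 12-month replicate 2 within their age. Their differences of 0.98 (SE 1.05) and 1.24 (SE 0.77) were not separable from this spread.

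The same pair of arrays gave the lowest value of each age for 18 of the 58 transcripts, or 31.0%, and for 19.4% of all tested genes. Among 9 acinar markers, genes of the exocrine pancreas that surrounds the islets, it did so for 4. Ctrb1, a chymotrypsinogen, read 16.61, 17.07 and 14.02 at 3 months and 17.64, 14.39 and 17.91 at 12 months. It was 1 of only 3 among these 9 markers, with Cel and Cpa1, whose range exceeded 1 log2 unit at both ages. The summed linear signal of the 9 acinar markers was 2001380 to 2654270 at 3 months and 1924620 to 2878000 at 12 months. All 9 were above background on all 6 arrays, and the part of acinar RNA in this spread was not tested. Without 12-month replicate 2 the limma calls at the thresholds of the study went from 4 to 9, of which 7 were higher, while those over all tested probes went from 22.0% to 27.2%. The 9 included Mrps11, Mrps18a, Mrpl27 and Mrpl52.

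**Figure D4:**
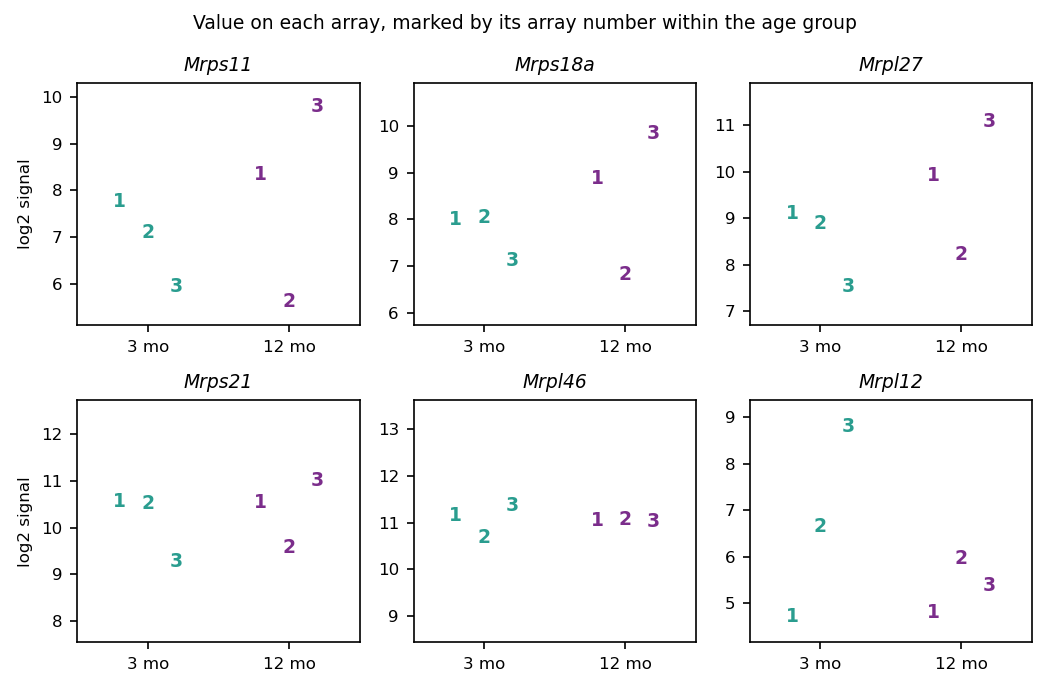
Log2 signal (y axis, of equal span in each panel) of 6 transcripts at 3 and 12 months (x axis); each number is 1 array, named by its number within the age group. In Mrps11, Mrps18a, Mrpl27 and Mrps21 the number 2 is the lowest of the 12-month arrays, whereas the 12-month values of Mrpl46, 11.05, 11.06 and 11.02, coincide.

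Several of these genes start head to head with another gene. Of the 52 with a promoter window, 16 had a gene on the opposite strand whose start lay within 1000 bases upstream, and in 11 pairs both genes were tested. In 6 of the 11 the 2 genes had differences of the same sign. One pair holds 2 genes of the mitochondrial ribosome, Mrps11 and Mrpl46. Their arrays differed: Mrpl46 read 11.14, 10.69 and 11.37 at 3 months and 11.05, 11.06 and 11.02 at 12 months (difference -0.02), and so had a narrower range than Mrps11 at both ages. Mrpl2 shares such a region with Klc4, a kinesin light chain, which had a difference of -0.88 (limma adjusted p 0.0568) beside -0.72 for Mrpl2. Mrps27 lies beside Ptcd2, another pentatricopeptide repeat gene, with 0.60 (limma adjusted p 0.383) beside 0.85. None of the partners passed the adjusted threshold, and 2 of 11 had an unadjusted p under 0.05.

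Differences are set out here by motif letters, with no test. With any of the 3 motifs, 20 were tested and 11 had a negative difference (median -0.05); without, 28 were tested and 18 were negative (median -0.23). For YY1 the medians were -0.05 with (n = 12) and -0.18 without, and for NRF1 -0.15 with (n = 5) and -0.08 without. The 7 tested transcripts with ETS letters had a median of 0.44, with 2 negative, against -0.15 for the other 41. They include Mrps27. They also include Mrpl27, Mrpl52 and Mrpl48, whose 12-month arrays ranged over more than 1 log2 unit. Mrpl48 was above background on 2 of 3 arrays at 3 months and on 1 of 3 at 12 months. Mrpl44 and Mrpl17, both with the NRF1 palindrome, had differences of -0.98 and 1.099.

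Other genes of mitochondrial translation and mitochondrial DNA had more positive than negative differences, 37 against 28. Of 87 genes in 5 lists (other ribosome subunits, ribosome assembly, translation factors, tRNA synthetases, and transcription and replication of mitochondrial DNA with its nuclear regulators), 70 had a probe and 65 were tested. At an adjusted p under 0.05, 6 of the 65 (9.23%) were higher and 0 lower by limma, beside the 5.32% and 3.05% of all probes, with 16 higher (24.6%) and 6 lower (9.23%) at an unadjusted p under 0.05, beside 13.7% and 18.8% of all probes. The median difference of the 65 was 0.18, which is 0.34 above that of the 58 ribosomal proteins; no test of this contrast was made. By list the medians were 0.34 for 5 subunits with other symbols, 0.10 for 20 assembly genes, 0.27 for 10 translation factors, -0.25 for 13 tRNA synthetase genes and 0.42 for 17 genes of mitochondrial DNA.

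**Figure D5:**
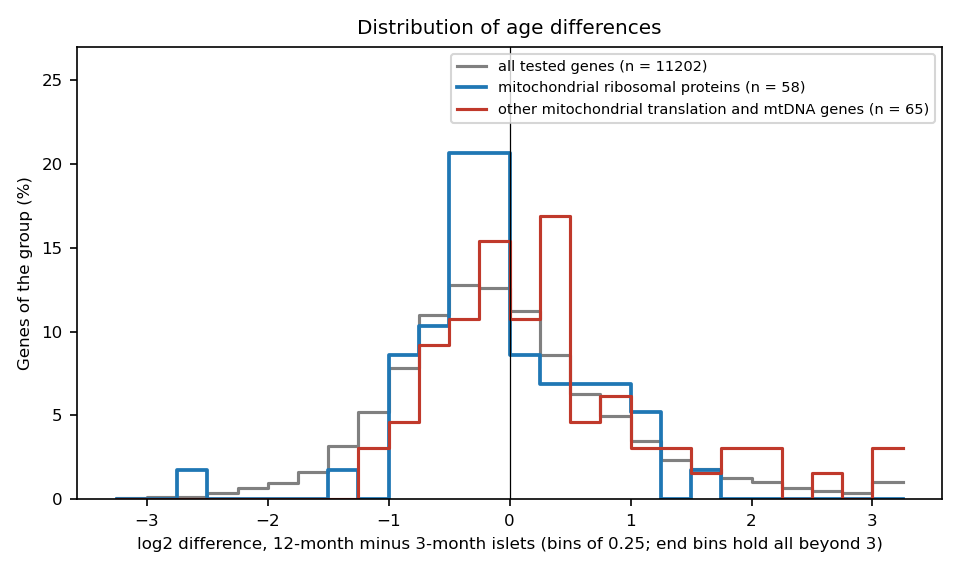
Share of genes (y axis, percent) by log2 difference between 12-month and 3-month islets (x axis, bins of 0.25, end bins open) for the 58 mitochondrial ribosomal protein genes, the 65 other genes of mitochondrial translation and mitochondrial DNA, and all 11202 tested genes. An absolute difference over 1 is seen for 10.3% of the ribosomal proteins, 21.5% of the 65 other genes and 24.6% of all genes.

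In the list of mitochondrial DNA, Yy1, the transcription factor whose motif was searched above, read 5.98, 5.82 and 4.23 at 3 months and 9.99, 9.82 and 10.59 at 12 months. It rose by 4.79 (limma SE 0.51, adjusted p 0.00623) and kept its call in each of the 6 fits without 1 array and in 12 of 16 alternatives. Ssbp1, which binds single-stranded mitochondrial DNA, rose by 1.21 (limma adjusted p 0.0409). The other factors whose letters were searched did not pass the adjusted threshold: Gabpa had a difference of 0.94 (limma adjusted p 0.0607), Gabpb1 one of 0.33 and Nrf1 one of 0.56. Twnk, the mitochondrial helicase, had a difference of 1.32 (limma adjusted p 0.138), Tfam, which packages mitochondrial DNA, 0.50, and Esrra, a nuclear receptor, -0.89 (limma adjusted p 0.0678). Polrmt, the mitochondrial RNA polymerase, and Mterf1 had differences of -0.74 and -0.20.

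Among assembly genes, Gtpbp10, a GTPase of large subunit assembly, read 4.74, 6.26 and 4.54 at 3 months and 8.14, 8.44 and 8.26 at 12 months. It rose by 3.09 (limma SE 0.47, adjusted p 0.0169). Mterf3, a member of the mitochondrial transcription termination factor family, rose by 1.85 (limma adjusted p 0.0183). Mrm1, a methyltransferase of the ribosomal RNA, had a difference of 2.59 (limma adjusted p 0.0898), and Mrm3, another one, -1.06 (limma adjusted p 0.0649). Mtg2, a GTPase of the large subunit, and Ybey had differences of -0.62 and -0.56. Of the subunits with other symbols, Gadd45gip1 had -0.89 (limma adjusted p 0.132), Chchd1 -0.13, Aurkaip1 0.34, Dap3 0.49 and Ptcd3 0.49.

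Of the translation factors, Rmnd1 rose by 2.04 (limma adjusted p 0.0481), while Mtrfr, a release factor relative that was above background on 1 of 3 arrays at 3 months, had 2.02 (limma adjusted p 0.0544) and Gfm1, the elongation factor G of mitochondria, 1.11 (limma adjusted p 0.123). Tufm, the elongation factor Tu of mitochondria, Mtfmt and Taco1 had the lowest values, -0.29, -0.28 and -0.05. Gatc, a subunit of the amidotransferase that completes glutaminyl-tRNA, was the only tRNA gene called and rose by 1.82 (limma adjusted p 0.0269). Vars2 and Hars2 had 1.62 and 0.73, and Sars2 and Fars2 had -0.999 and -0.71, none past the adjusted threshold. Pars2 was well above background on all 3-month arrays and on none at 12 months, with a 3-month mean under the 12-month detection level, so no fold is given (limma adjusted p 0.255). The 5 called genes other than Yy1 kept their calls in only 1 or 2 of the 6 fits without 1 array. In 4 of those fits, without 12-month replicate 1 or 3 or without 3-month replicate 1 or 3, the count was 1 in place of 6. Over all tested probes the share called in these 4 fits was 1.16% to 2.56%, in place of 8.37%, so the loss was not particular to these genes.

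Cytosolic ribosomal proteins and nuclear subunits of oxidative phosphorylation had the nearest medians to 0. The 69 tested cytosolic ribosomal proteins had a median difference of -0.03, with Rpl10 (-1.73, limma adjusted p 0.0222) and Rpl27a (-1.35, limma adjusted p 0.0433) lower. The 71 tested subunits of oxidative phosphorylation also had a median of -0.03, with Atp5me (-1.06, limma adjusted p 0.0466) and Atp5pd (-1.04, limma adjusted p 0.0400), both of ATP synthase, lower. In each family, as in the mitochondrial ribosome, 2 transcripts were called and none of them was higher. That is 2.90% of the cytosolic ribosomal proteins, 2.82% of the oxidative phosphorylation subunits and 3.45% of the mitochondrial ribosome. Over all tested probes 3.05% were called lower and 5.32% higher, so the shares called lower were near that of all probes. Under the 75th percentile alignment the medians of these families were -0.48 and -0.40, beside -0.32 for the mitochondrial ribosome, so their order turned; with normexp background correction the median of oxidative phosphorylation was 0.03.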

How the data were processed

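Per the file headers, the authors deposited scanner files quantified with Agilent Feature Extraction 11.0.1.1, holding spot intensity without normalization between arrays, probe names and quality marks. They also deposited a table of normalized log2 values, used as an alternative; its filter is not given in the sources used here. Arrays have no read depth, and their number limits the precision.

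The log2 of background-subtracted intensity was averaged over spots of a probe, without outlier spots, and quantile normalized. Of 24684 probes, 17944 were well above background on at least 3 of 6 arrays and 17941 were tested with limma 3.58.1 in R 4.3.3 (lmFit, eBayes, two-sided, no block; tested on simulated data). Genes were named by unversioned accession through a RefSeq table of assembly GRCr8 (14274 of 15321 mRNA probes). Promoter coordinates are of GRCr8, not of the array design.

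The genes, the lists and the rules were chosen with earlier results of these data known. Named are transcripts with an adjusted p under 0.05, up to 8 per direction at an unadjusted p under 0.05, those dim in 1 age, and fixed ones of known role, of which Mrpl11, Mrps22, Mrps36, Mrpl58 and Mrps6 had no probe matched here; of the other lists, adjusted calls and the 3 largest differences in each direction. Mrps11, Mrpl27, Mrpl46, Mrpl48, Mrpl52, the partners of head-to-head pairs, Nrf1, Gabpa, Gabpb1, Tfam and Ctrb1 were named after their values were seen. For Mrps23 and Mrpl55, above background on no 12-month array, the difference and its limma interval are given, and no smallest fold is set. The labels give no number for 12-month replicate 3, which only names it. The supplement of the study names islet RNA of 3 rats of each age, and the labels do not say whether each array holds 1 rat. The p-values set each difference against the spread between arrays.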

Additional observations from a re-analysis of the deposited data

How the results depend on the processing

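The count of mitochondrial ribosomal proteins at an adjusted p under 0.05 was 2 as reported. It was 4 with the 75th percentile shift, with normexp and without a filter on dim probes, and 5 with an intensity trend and robust variances. With the replicate block over the 4 arrays that share numbers it was 0. A subset of 4 arrays chosen by a common ending in their names gave 0. The paired t-test named in the supplement (unnumbered arrays paired by elimination) also gave 0. Over all tested probes the calls were 1502 as reported, 1719, 1877, 2339 and 2017 in the first 4 of these settings, 0 in both fits of 4 arrays and 1 in the paired test, so the 0 counts are not particular to these transcripts. The count was 1, Mrps35, without any 1 array, where 208 to 2167 probes were called. At the threshold of the study, 4 of the 58 and 22.0% of all tested probes were called as reported. Under normexp 2 were called, beside 11.7% of all probes. The stricter filter that demands signal in each of the 6 arrays also left 2, beside 20.2%. That subset of 4 arrays gave 7 (14.5%) and the paired t-test 1 (8.66%). Leaving out 1 array gave 2 to 9, beside 17.4% to 27.2% of all probes. The lowest count was without 12-month replicate 1 (18.0%) and the highest without 12-month replicate 2 (27.2%). The falls to 2 and 1 and the rise to 9 thus went with the share of all probes. In that subset and without 3-month replicate 1 (6 called) the count rose while the share fell. The median difference was -0.32 with the 75th percentile shift, -0.27 with the replicate block, and -0.21 to -0.15 without 1 array; the small minus the large subunit median was -0.32 to -0.080. The 6 calls among other genes of mitochondrial translation became 3 with the 75th percentile shift, 0 with the replicate block, the subset of 4 arrays, the methods' t-test and the paired t-test, and 1 to 9 without 1 array. The methods' t-test called 435 of all tested probes, and the calls over all probes in the other settings are given above. With the 75th percentile shift the medians were -0.48 for cytosolic ribosomal proteins and -0.40 for oxidative phosphorylation; the latter was -0.11 with the replicate block and -0.12 to -0.0095 without 1 array. With the replicate block, Mrps18a (-0.17) and Mrps30 (0.15) reversed. The causes were not tested, except that fits on fewer arrays have fewer samples. Of 315 values of the 20 named transcripts under alternatives, 291 kept direction and side of the adjusted threshold, 12 lost and 10 gained a call, and 2 reversed. Same-numbered arrays did not deviate together (r -0.01 for number 1 and -0.31 for number 2 over 17874 probes); the supplement of the study names a paired test, and the labels do not say what a shared number stands for, so whether the arrays were paired is not known. Other choices of probe give no other value, since each gene had 1 probe. Signal over background limits Mrps35, Mrps5, Mrps23, Mrpl55, Mrpl48 and Mrpl12.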
